A study of Drosophila melanogaster with 9 samples.

Results

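The 132 genes described here each had an annotated promoter that was open in fly ovaries but carried no accessibility summit in cultured ovarian somatic cells, beside another promoter that was open in those cells. They were chosen from 13945 protein-coding genes on 6 chromosome arms and chromosomes, of which 1752 had transcription start sites (TSSs) at least 1000 bp apart. One TSS of each gene had a peak summit within 250 bp in 4 or 5 of the 5 ovary libraries but in no library of wild-type ovarian somatic cells (OSCs, 2 libraries), and is called the ovary-only TSS. A further TSS of the same gene, at least 1000 bp away, had a summit in both wild-type libraries and is called the OSC TSS. The values that chose the genes were therefore the summits in the ovary and wild-type libraries, and the contrast between them at the ovary-only TSS is given below as a description without a test. Of the 824 genes that had an OSC TSS and another TSS without a wild-type summit, the 132 made up 16.0%. Leaving out either wild-type library widened the set, to 228 genes without wild-type replicate 1 and 208 without wild-type replicate 2.

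Many fly genes carry alternative promoters, from which transcripts with different first exons are started. Such promoters let a gene be used in different cells under different control, and they can change the 5′ leader alone or also the first codons of the protein. In the ovary, the germ cells (nurse cells and oocyte) and the somatic follicle cells that surround them can use different start sites of the same gene. ATAC-seq inserts adapters with a transposase wherever DNA is not covered by nucleosomes, so a peak at a TSS shows an open promoter and not a transcript.

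The study mapped open chromatin in 9 ATAC-seq libraries. OSCs are a female cell line of somatic follicle cell origin without germ cells, grown at 26 °C and tagmented by the omni-ATAC protocol, and they were taken as wild-type cells (n = 2) and as cells carrying a deletion of l(3)mbt (l(3)mbt-KO, n = 2), a gene whose chromatin-binding product holds germline genes silent in somatic cells. Whole ovaries were lysed intact after dissection from yeast-fed females kept at 25 °C, of the w1118 strain (n = 2, 6 ovaries each) and of a transgenic vas-EGFP strain, w[*]; TI{TI}vas[AID:EGFP] (n = 3, from 6, 10 and 30 ovaries). The wild-type OSCs were compared with the l(3)mbt-KO cells, which the paper obtained as a separate stock. The deletion and any other difference between the stocks therefore cannot be told apart. Ovaries hold germ and somatic cells in 1 sample, so more cells of a type and a more open promoter per cell cannot be told apart. Of 9 matched germline marker genes, 6 to 9 had a summit at a TSS in the ovary libraries and 3 to 5 in the OSC libraries, and of 8 follicle cell markers 7 had one in each ovary library and 4 to 7 in the OSC libraries.

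The libraries differed in how much their peak lists hold. Wild-type replicate 1 had 59385 peaks on the chromosomes used and wild-type replicate 2 had 22011, while the l(3)mbt-KO libraries had 36629 and 27037 and the ovary libraries 16579 to 24882. The median fold enrichment of all peaks was 2.31 to 3.68 in the OSC libraries and 5.16 to 5.31 in the ovary libraries. Fold enrichment is the pileup at a summit relative to the local background of its own library, so a level in an OSC library and a level in an ovary library are not on a common scale. The number of reads behind the lists is unknown, and an absent summit means no peak called there at this depth.

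The sequences around both start sites of 6 of the genes are printed first, because they are the DNA that the ovary and OSC peaks lie on. They run from 80 bases before to 20 bases from the TSS onward, on the strand of the gene, from the RefSeq copy of the dm6 assembly. Capitals mark exact matches on either strand to 7 motifs. They are CCGTTA, the motif the study derived for the germline transcription factor Ovo, TATCGATA, the DNA replication-related element (DRE) of broadly used promoters, and GGTCACACT, the core of Ohler motif 1 of the same class. The others are TATAAA as a TATA box that places the start of transcription, and TCAGT as part of the initiator. The remaining motifs are GAGAG as the site of GAGA-binding proteins such as pipsqueak, and CAGCTG as an E-box bound by helix-loop-helix proteins. An initiator lies at the start itself, but matches were marked anywhere in the window. None of the TCAGT matches marked below lies at the TSS, so they are not read as initiators.
btsz, ovary-only TSS (chr3R:14817927-14818026, minus strand): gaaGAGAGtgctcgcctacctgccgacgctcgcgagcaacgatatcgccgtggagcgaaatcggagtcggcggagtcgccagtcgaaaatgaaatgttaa
btsz, OSC TSS (chr3R:14853900-14853999, minus strand): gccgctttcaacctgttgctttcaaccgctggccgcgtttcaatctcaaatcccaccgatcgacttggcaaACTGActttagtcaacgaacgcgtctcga
fwd, ovary-only TSS (chr3L:319865-319964, minus strand): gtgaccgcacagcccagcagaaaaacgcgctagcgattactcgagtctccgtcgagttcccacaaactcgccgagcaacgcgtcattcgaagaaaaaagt
fwd, OSC TSS (chr3L:311623-311722, minus strand): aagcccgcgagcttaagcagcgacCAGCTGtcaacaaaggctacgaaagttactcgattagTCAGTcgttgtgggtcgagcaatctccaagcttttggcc
lute, ovary-only TSS (chr3R:17379864-17379963, plus strand): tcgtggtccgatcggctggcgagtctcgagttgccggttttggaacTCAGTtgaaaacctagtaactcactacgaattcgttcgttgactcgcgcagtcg
lute, OSC TSS (chr3R:17385811-17385910, plus strand): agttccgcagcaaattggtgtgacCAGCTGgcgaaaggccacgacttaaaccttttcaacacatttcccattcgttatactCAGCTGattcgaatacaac
SP1173, ovary-only TSS (chr3L:6692635-6692734, minus strand): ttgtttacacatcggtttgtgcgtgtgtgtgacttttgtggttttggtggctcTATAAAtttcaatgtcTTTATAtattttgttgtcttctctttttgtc
SP1173, OSC TSS (chr3L:6703502-6703601, minus strand): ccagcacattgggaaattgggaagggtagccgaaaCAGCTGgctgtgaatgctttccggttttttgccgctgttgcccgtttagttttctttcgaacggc
dsx, ovary-only TSS (chr3R:7967389-7967488, minus strand): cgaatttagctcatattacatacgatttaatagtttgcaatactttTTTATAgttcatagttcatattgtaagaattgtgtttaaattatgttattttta
dsx, OSC TSS (chr3R:7962767-7962866, minus strand): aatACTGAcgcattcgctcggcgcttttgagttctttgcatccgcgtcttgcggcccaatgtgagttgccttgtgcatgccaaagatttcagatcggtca
for, ovary-only TSS (chr2L:3646119-3646218, minus strand): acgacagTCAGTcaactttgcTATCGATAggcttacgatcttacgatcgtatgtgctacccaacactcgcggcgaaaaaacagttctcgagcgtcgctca
for, OSC TSS (chr2L:3632135-3632234, minus strand): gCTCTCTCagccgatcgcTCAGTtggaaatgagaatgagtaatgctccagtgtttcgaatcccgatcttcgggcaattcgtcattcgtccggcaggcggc
In these windows TATAAA or its complement stood before the ovary-only TSS of SP1173 and of dsx and not before their OSC TSSs, and the DRE stood at the ovary-only TSS of for. The ovary-only window of fwd held none of the 7 motifs, and its CCGTTA site lay farther upstream and is printed with the motif counts. All 6 genes had a summit in all 5 ovary libraries at the ovary-only TSS. They are examples only. In the longer windows counted below, TATAAA was found at 33.3% of all members' ovary-only TSSs, 28.0% of their OSC TSSs and 42.2% of all TSSs. The DRE was found at 2.27%, 9.85% and 7.98% of these sets.

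At the ovary-only TSSs, the ovary fold enrichment was spread around the middle of the ovary peaks. The median over the 5 ovary libraries, with a library without a summit counted as 1, ranged from 2.25 to 21.9 over the 132 genes, and its median was 5.12. A member's peak stood at a median percentile of 50.4 among all peaks of the same library. In 89 genes all 5 ovary libraries had the summit and in 43 genes 4 had it. The summit was present in 126 and 130 genes in the w1118 libraries and in 128, 123 and 110 genes in the vas-GFP libraries, so that the 30-ovary library, which had the fewest peaks, missed the most. The median ovary summit lay 1 to 248 bp from the TSS, with a median of 87.5 bp.

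**Figure D1:**
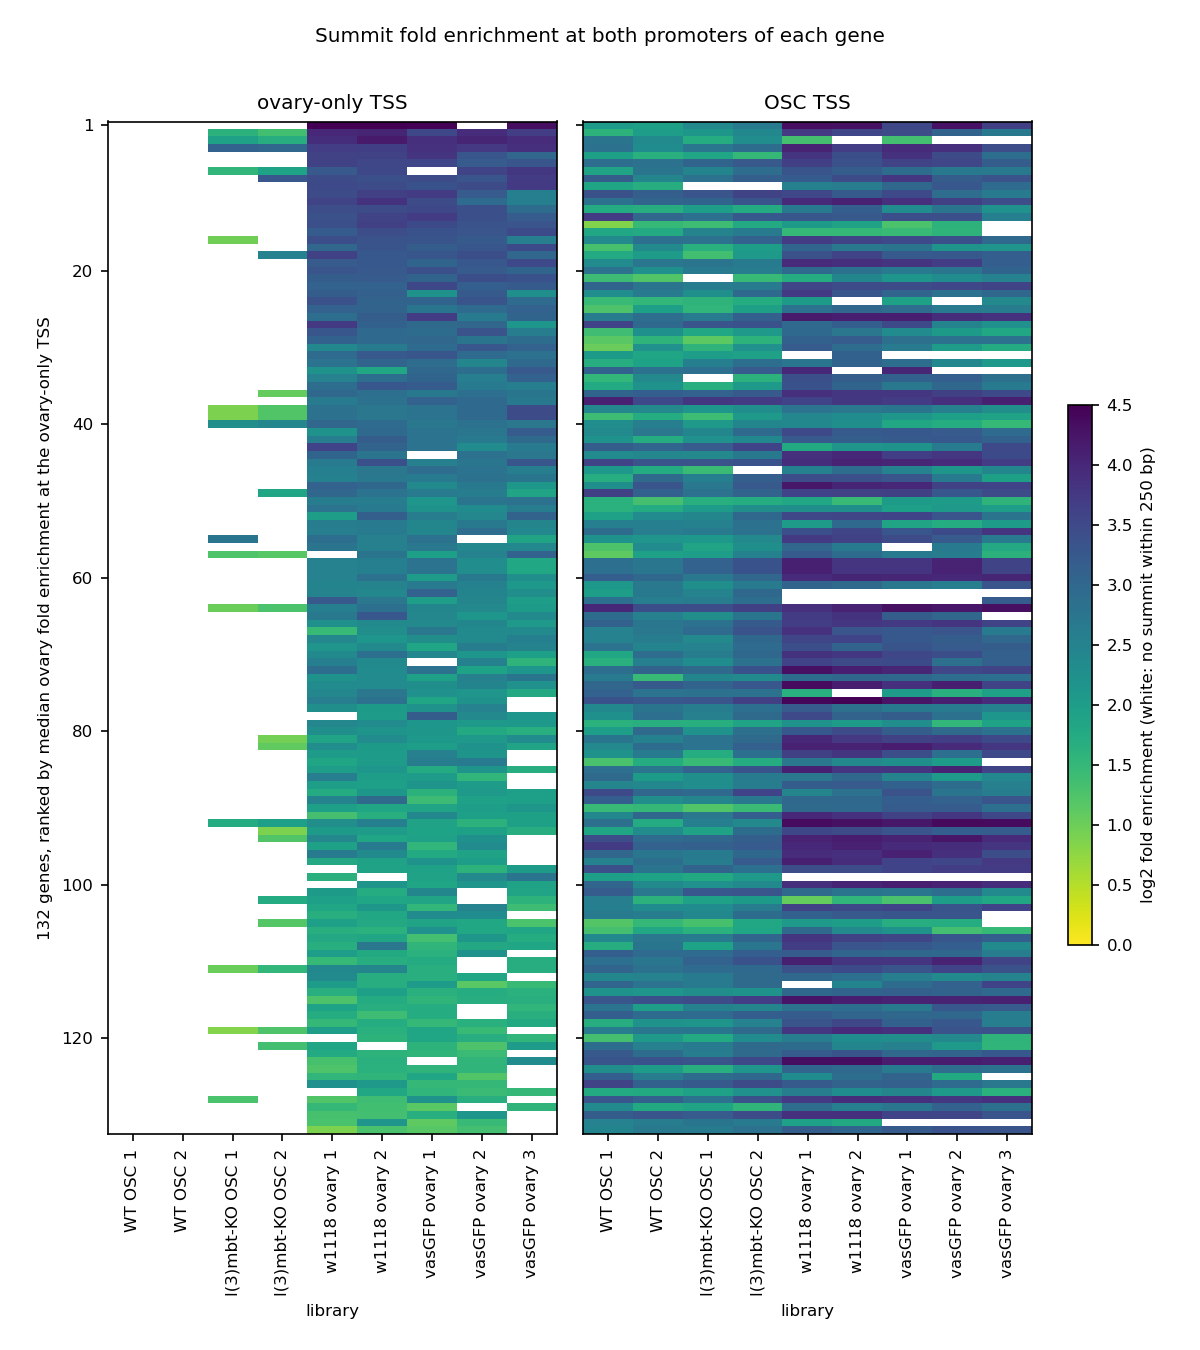
Fold enrichment (log2) of the highest summit within 250 bp of the ovary-only TSS (left) and of the OSC TSS (right) of the 132 genes, 1 row per gene and 1 column per library, with white where no summit was called. The wild-type columns are empty on the left and full on the right by the choice of the genes, 106 genes are empty in both l(3)mbt-KO columns on the left, and 114 genes are filled in all 5 ovary columns on the right.

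Named genes came from rules on the values, and the 12 with the highest ovary medians were CG17600, DAAM, scb, fwd, btsz, CG42336, prage, ps, CG9815, Kank, lute and SP1173. For btsz, which codes for bitesize, a synaptotagmin-like protein that organises actin at the apical membrane, the fold enrichment was 12.3 in both w1118 libraries and 14.2, 9.83 and 8.12 in the vas-GFP libraries. No OSC library had a summit there, the nearest wild-type summit was 633 bp away, and the ovary-only TSS lay 35973 bp downstream of the OSC TSS. For lute the values were 11.97 and 14.3 in w1118 and 10.9, 7.57 and 5.87 in vas-GFP ovaries, again with no summit in any OSC library and the nearest wild-type summit 2188 bp away. The ovary-only TSSs of these 2 genes were thus open in all 5 ovary libraries and called in none of the 4 OSC libraries.

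Kank, which codes for the fly KANK protein, had 10.9 and 12.5 in w1118 and 13.0, 9.24 and 5.87 in vas-GFP ovaries. SP1173 had 10.8 and 10.9 in w1118 and 11.6, 10.6 and 7.50 in vas-GFP ovaries. CG42336 had 12.4 and 11.7 in w1118 and 11.7, 9.19 and 9.82 in vas-GFP ovaries. None of these 3 had an l(3)mbt-KO summit, no wild-type peak reached the window of 250 bp either side of their ovary-only TSS, and their ovary libraries overlapped between the strains. CG9815 had 11.3 and 10.9 in w1118 and 10.3, 11.0 and 13.4 in vas-GFP ovaries, with the nearest wild-type summit 718 bp away. It was also the only member whose OSC TSS had no summit in either l(3)mbt-KO library.

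At 6 of these 12 genes, among them the 4 with the highest ovary medians, a wild-type peak reached the window as well, with its summit more than 250 bp from the TSS. For CG17600 the ovary fold enrichment was 23.7 and 24.5 in w1118 and 21.9 and 20.1 in 2 vas-GFP libraries, with no summit in the 10-ovary library. A wild-type peak covered this TSS in both libraries, with summits 304 and 294 bp away and a fold enrichment of 8.34 and 9.43, and the TSS of CG17598 lay within 250 bp. DAAM codes for a formin that builds actin filaments and had 16.1 and 16.3 in w1118 and 11.6, 15.3 and 12.8 in vas-GFP ovaries, while a wild-type peak of 5.01 in replicate 1 covered the TSS with its summit 256 bp away. For ps (pasilla), a splicing factor, the ovary values were 11.2, 10.6, 11.1, 9.97 and 13.2, and both wild-type libraries had peaks over the TSS with summits 260 and 252 bp away. At these 3 promoters the DNA was covered by a wild-type peak, and only the place of its summit put them in the set.

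Over all members, a wild-type peak overlapped the window of 250 bp either side of the ovary-only TSS in 34 genes and lay over the TSS itself in 13. The other 98 genes had no wild-type peak in that window. Among all 569 TSSs of protein-coding genes with the ovary-only pattern, 24.3% had a wild-type peak in the window. The nearest wild-type summit was 251 to 11753 bp from the ovary-only TSS, with a median of 667.5 bp, and it lay within 300 bp in 19 genes and within 1000 bp in 95. Measured from the median ovary summit instead of the TSS, a wild-type summit lay within 100 bp in 4 genes, which were Ptpmeg2 (24 bp), tamo (40 bp), MFS10 (61 bp) and CG34310 (76 bp). The 34 genes with a wild-type peak in the window had a median ovary value of 6.46 and the 98 without had 5.06. Requiring no wild-type summit within 1 kb left 39 genes. In the peak lists that the authors called on merged replicates, a summit lay within 250 bp of the ovary-only TSS in 10 genes in wild-type OSCs, 24 in l(3)mbt-KO OSCs, 127 in w1118 ovaries and 126 in vas-GFP ovaries, so 10 of the 132 promoters had a summit in the merged wild-type list that neither single library had.

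**Figure D2:**
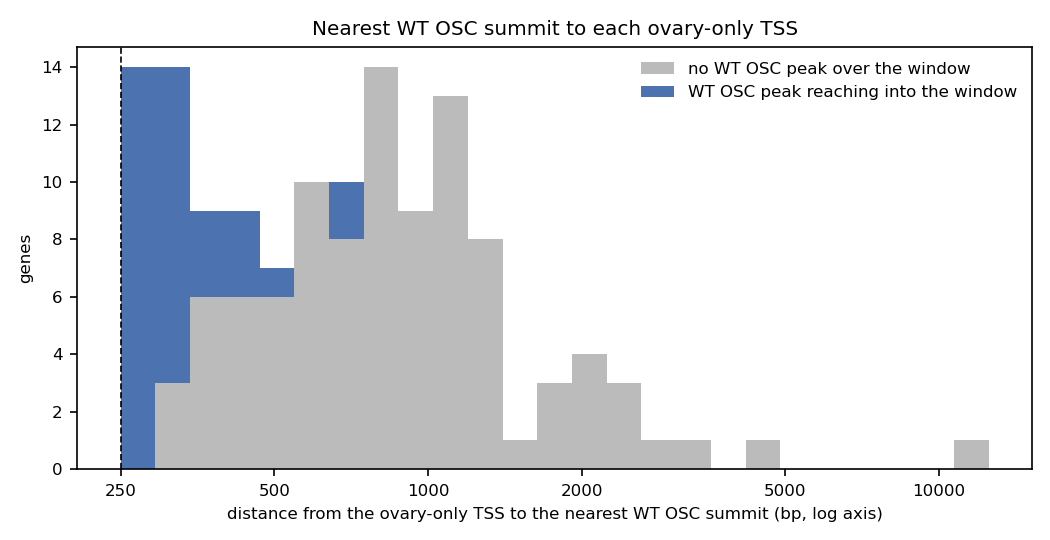
Number of genes by the distance, on a log axis in bp, from the ovary-only TSS to the nearest wild-type OSC summit, with genes whose window a wild-type peak reached in blue and the others in grey. The dashed line marks the 250 bp of the rule, 19 genes lie within 300 bp, and the 34 blue genes crowd toward the line.

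Members just inside the distance threshold had a wild-type summit 251 bp (Bx), 252 bp (ps), 254 bp (milt) and 256 bp (DAAM) away, with ovary medians of 3.77, 11.1, 3.23 and 15.3. Just outside it were Scr (246 bp), disco-r (245 bp), ph-d (245 bp) and Psa (244 bp), with ovary medians of 11.3, 10.9, 19.6 and 10.8. Genes on either side thus differed from each other by a few bp in the place of a wild-type summit. A further 36 genes met the other conditions with 3 ovary libraries, and 123 with a summit in 1 of the 2 wild-type libraries.

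The OSC promoter of these genes was as a rule open in ovaries as well. At the OSC TSS, 124 of the 132 genes (93.9%, exact 95% interval 88.4 to 97.3) had a summit in at least 4 ovary libraries, and 114 had one in all 5. Over all 7862 TSSs with a summit in both wild-type libraries, the share was 87.7%. The median ovary fold enrichment at the OSC TSS was 9.09, above that at the ovary-only TSS in 90 of the 132 genes. In most of these genes the ovary samples thus had both promoters open, with a lower value at the ovary-only one. The choice of the pair can tilt the values this way. The OSC TSS was the one with the highest wild-type mean, and the ovary-only TSS had to lack a wild-type summit. The share over other pairs of TSSs was not computed, so the difference is a description only. With all 5 ovary libraries required at both sites the share was 85.4%, and without wild-type replicate 2 it was 80.8%.

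For 2 genes (1.52%) no ovary library had a summit within 250 bp of the OSC TSS, against 4.26% of the same 7862 TSSs. An ovary peak with its summit farther away was not counted, so these OSC promoters need not have been closed in ovaries. Tsp5D, a tetraspanin membrane protein gene, had 5.59 and 5.33 in w1118 and 8.51, 5.51 and 4.85 in vas-GFP ovaries at the ovary-only TSS, and 4.01 and 6.41 in wild-type and 5.59 and 7.85 in l(3)mbt-KO OSCs at the OSC TSS, 1860 bp upstream. CG12910 had 3.13, 3.75, 5.22 and 6.84 in 4 ovary libraries and no summit in w1118 replicate 2 at the ovary-only TSS, and 3.87 and 3.69 in wild-type and 3.41 and 4.17 in l(3)mbt-KO OSCs at the OSC TSS. Neither gene had an OSC summit at the ovary-only TSS. In 6 further genes the OSC TSS had a summit in 1 to 3 ovary libraries, namely cher, CG5151, scb, Ptpmeg2, Sarm and stet. For scb (scab), an integrin alpha subunit, the ovary libraries had 15.02, 18.1, 14.6, 16.4 and 15.2 at the ovary-only TSS, and 2.52 and 2.56 in 2 libraries and no summit in 3 at the OSC TSS. For stet, a rhomboid-family protease, the ovary-only TSS had 10.4, 8.38, 8.28, 10.1 and 7.58.

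The l(3)mbt-KO libraries were not used to choose the genes, and they left most ovary-only TSSs without a summit. A summit was present in both l(3)mbt-KO libraries in 12 genes (9.09%, exact 95% interval 4.79 to 15.3), in 1 library in 14 genes, of which 11 had it in replicate 2 alone, and in neither in 106. Over all 8162 TSSs without a wild-type summit the share with both was 2.70%, and over the 569 of these with a summit in at least 4 ovary libraries, members included, it was 13.7%. The first background took TSSs whether or not they were open in ovaries, and the second took only those open in ovaries, as the members were. The members' share stood above the first, and its interval held the 13.7% of the second. Among the 98 genes without a wild-type peak in the window 6 (6.12%, 2.28 to 12.9) had both summits, against 11.6% of the 431 TSSs with the ovary-only pattern and no wild-type peak, and among the 34 with such a peak 6 (17.6%, 6.76 to 34.5) had both. These intervals cover counting error only. The share was 17.5% without wild-type replicate 1 and 21.6% without wild-type replicate 2, where the genes chosen also changed, and 17.4% of the 132 genes had a summit in l(3)mbt-KO replicate 2. No test was made, since the wild-type value was fixed by the choice of the genes.

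**Figure D3:**
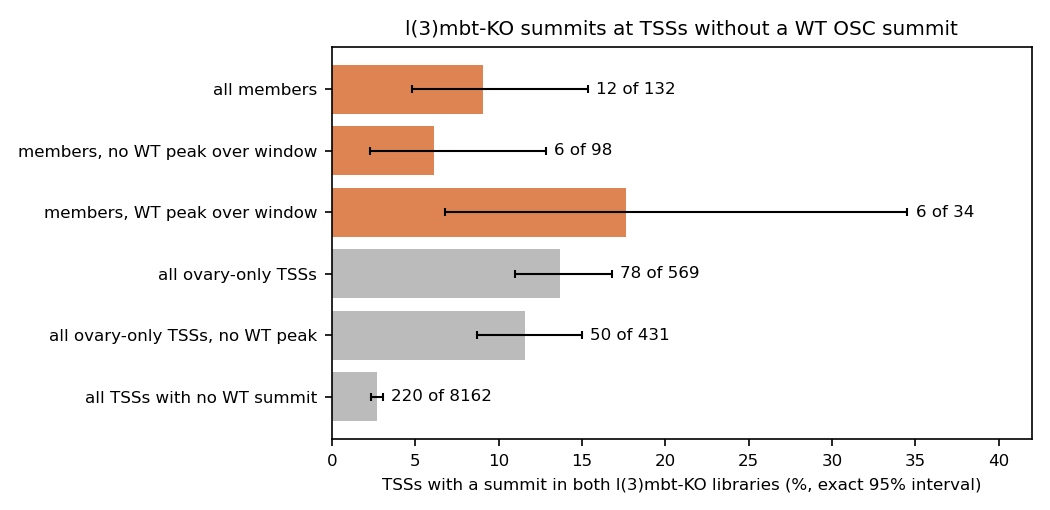
Share of TSSs without a wild-type OSC summit that had a summit in both l(3)mbt-KO libraries, in percent with exact 95% intervals, for the 132 members and their 2 subsets (orange) and for all TSSs of the same kind (grey). The members reach 9.09%, above the 2.70% of all TSSs without a wild-type summit, and their interval holds the 13.7% of all ovary-only TSSs.

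Among the 12 genes with a summit in both l(3)mbt-KO libraries, the highest mean value was that of fwd, a phosphatidylinositol 4-kinase, with 8.47 and 8.06 at the ovary-only TSS beside 12.8 and 12.7 in w1118 and 14.5, 13.6 and 14.8 in vas-GFP ovaries. These l(3)mbt-KO peaks stood at the percentiles 97.9 and 91.1 of their libraries. A wild-type peak covered the same TSS in both libraries, with a fold enrichment of 9.14 and 7.50 at a summit 300 bp away, so the wild-type cells were not without signal there. psq (pipsqueak), a BTB-domain transcription factor used in oogenesis, had 4.83 and 5.35 in l(3)mbt-KO OSCs beside 6.48 to 8.07 in ovaries, again with a wild-type peak over the TSS in both libraries. scb had 3.8 and 3.22, prage 2.9 and 3.69 and DAAM 3.03 and 2.58 in the l(3)mbt-KO libraries, and at each of them a peak of at least 1 wild-type library covered the TSS. milt (milton), which links mitochondria to kinesin, had 2.02 and 2.87, with wild-type peaks in the window.

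The other 6 genes with both l(3)mbt-KO summits had no wild-type peak in the window, and their l(3)mbt-KO values ranged from 1.78 to 3.90. CG9674 had 3.33 and 3.90 in l(3)mbt-KO OSCs and 4.83, 5.92, 3.75, 3.06 and 3.85 in ovaries. for (foraging), a cGMP-dependent protein kinase, had 2.01 and 2.42 in l(3)mbt-KO OSCs and 5.90, 7.22, 5.40, 5.22 and 4.15 in ovaries, and its nearest wild-type summit was 2166 bp away. smg (smaug), an RNA-binding repressor of maternal mRNAs, had 1.78 and 2.36 beside 2.78 to 3.93 in 4 ovary libraries. CG9485 had 2.37 and 2.24 beside 3.88 to 8.48 in 4 ovary libraries. Vha100-2, a subunit of the vacuolar proton pump, and Vti1b, a SNARE protein of vesicle fusion, are divergent neighbours that shared 1 set of summits, with 1.84 and 2.32 in l(3)mbt-KO OSCs and 6.54 to 10.9 in ovaries. The l(3)mbt-KO and ovary levels of these genes stand side by side only, since the 2 kinds of library are not on a common scale.

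**Figure D4:**
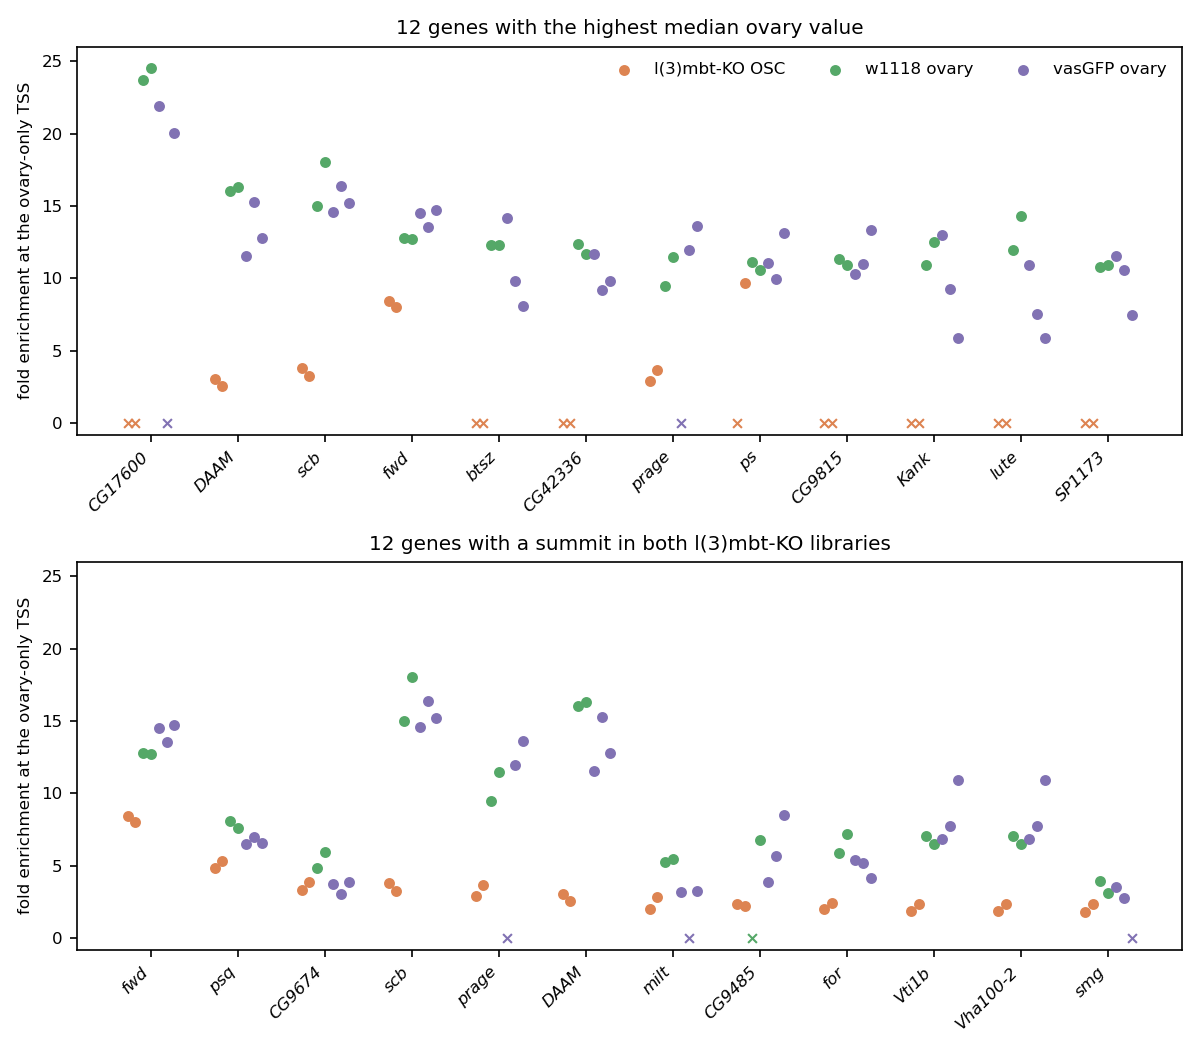
Fold enrichment at the ovary-only TSS in the l(3)mbt-KO OSC, w1118 ovary and vas-GFP ovary libraries, 1 point per library and a cross at 0 for a library without a summit, for the 12 genes with the highest ovary medians (top) and the 12 genes with a summit in both l(3)mbt-KO libraries (bottom). The l(3)mbt-KO points reach 8.47 at fwd and 9.66 in 1 library at ps, and 7 of the 12 genes in the upper plot have no l(3)mbt-KO summit.

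Of 6 lists of genes of ovary biology, 3 held a member, and the numbers are too small to set any list apart. Members made up 7.53% of the 1752 genes with TSSs at least 1000 bp apart, which were the only genes that could be chosen. Such genes numbered 8 of the 19 matched germline development genes, 2 of 20 piRNA pathway genes and 7 of 9 ecdysone genes, with 0 members among them. They numbered 9 of 21 cytoskeleton genes, with cher and Moe as members, 12 of 20 signalling genes, with pnt, and 3 of 9 genes of sex determination and splicing, with dsx. cher codes for filamin, which crosslinks actin in the ring canals between germ cells, and its ovary-only TSS had 7.59 and 9.49 in w1118 and 9.83, 7.60 and 6.99 in vas-GFP ovaries. At its OSC TSS the wild-type OSCs had 4.14 and 3.56 and the l(3)mbt-KO OSCs 3.99 and 3.81, while only w1118 replicate 2 among the ovary libraries had a summit, of 8.55. The summits at the 2 promoters of cher were thus called mostly in different samples. Ovary peaks with a summit more than 250 bp from the OSC TSS were not counted.

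Moe codes for moesin, which ties the membrane to actin. At the ovary-only TSS it had 5.60 and 7.72 in w1118 and 2.66, 3.82 and 3.91 in vas-GFP ovaries. Both w1118 values lay above the 3 vas-GFP values, but Moe was not called in the comparison of the strains below (limma adjusted p 0.39). pnt codes for an ETS transcription factor downstream of the EGF receptor and had 3.30, 4.32, 3.07, 4.25 and 3.91 in ovaries, with wild-type peaks of 10.6 and 7.39 reaching the window from summits 292 and 296 bp away. dsx (doublesex), the transcription factor at the end of the sex determination pathway, had 5.36 and 6.57 in w1118 and 4.69, 4.48 and 3.46 in vas-GFP ovaries at an ovary-only TSS 4622 bp upstream of the OSC TSS. At the OSC TSS of dsx the wild-type OSCs had 8.49 and 6.90, the l(3)mbt-KO OSCs 6.95 and 6.99, and 4 ovary libraries 3.11 to 4.10. None of these 4 genes had an l(3)mbt-KO summit at the ovary-only TSS.

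At the OSC TSSs, the members were open in l(3)mbt-KO OSCs too, and no member was called different from wild type by the comparison over all TSSs. The wild-type summits there were part of the choice of the genes, and the OSC TSS with the highest wild-type mean was taken where there were several, which tilts the members' differences toward lower values in l(3)mbt-KO OSCs, so these are given as a description. A summit was present in both l(3)mbt-KO libraries in 128 genes, in 1 in 3 genes, and in neither in CG9815. limma was run on log2 fold enrichment, centred on the median of each library, over 6023 TSSs with a summit in all 4 OSC libraries. With Benjamini-Hochberg adjustment, 1 TSS was lower in l(3)mbt-KO OSCs (0.0166%) and 0 were higher (0%), and 119 had an unadjusted p under 0.05. The 128 members stood in 124 of these TSSs, since TSSs with the same summits were counted once, and 0 were called, with 2 at an unadjusted p under 0.05. These were CG12991, with a difference of 0.73 (SE 0.26) on the log2 scale, l(3)mbt-KO minus wild type, and scb, with -0.76 (SE 0.30), both with a limma adjusted p of 0.999. Over the members the median difference was -0.08, beside -0.03 over all TSSs tested, and without centring these were 0.12 and 0.17. Without wild-type replicate 2, which left replicate 1 with its 59385 peaks as the only wild-type library, 12 members were called, all 12 lower in l(3)mbt-KO OSCs, and 329 TSSs in all, of which 247 were lower. Without wild-type replicate 1, 38 TSSs and 0 members were called. In both of these fits the spread came from the l(3)mbt-KO pair, and the lone wild-type library was assumed to vary like it.

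The ovary-only TSSs were also compared between the ovary strains, which the rule had taken alike. Over 5753 TSSs with a summit in all 5 ovary libraries, limma called 1 TSS higher in w1118 (0.0174%) and 0 lower (0%), and 765 had an unadjusted p under 0.05. The 89 members with all 5 summits stood in 87 of these TSSs, 0 were called, and 16 had an unadjusted p under 0.05. The nearest to the threshold was Ptpmeg2, a protein tyrosine phosphatase gene, with 4.57 and 3.50 in w1118 and 7.90, 7.36 and 9.42 in vas-GFP ovaries, so that the strains did not overlap. Its difference, w1118 minus vas-GFP, was -1.41 (SE 0.23) on the log2 scale with a limma adjusted p of 0.098. CG1943 followed with 2.50 and 3.19 in w1118 and 5.26, 3.91 and 3.86 in vas-GFP ovaries, a difference of -0.98 (SE 0.20) and a limma adjusted p of 0.12. Over the members the median difference was -0.24, beside -0.05 over all TSSs, but without centring the members' median turned to 0.14, beside 0.32 over all TSSs. Members without all 5 summits were left out, and the 30-ovary vas-GFP library, with a summit in 110 of the 132 genes, missed the most. This can tilt the members that remained toward lower values in w1118. The 10-ovary and 30-ovary samples were all vas-GFP, so strain and number of ovaries cannot be told apart there. The paper also varied the tagmentation time for whole ovaries, and the labels do not give it for each library. A wild-type OSC summit lay 24 bp from the median ovary summit of Ptpmeg2, outside the 250 bp around its TSS.

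The ovary-only TSS lay upstream of the OSC TSS in 43 genes (32.6%, exact 95% interval 24.7 to 41.3) and downstream in the other 89. Among all 1183 alternative TSSs without a wild-type summit, set against an OSC TSS of the same gene, 27.8% lay upstream. In the 62 genes with the opposite pattern, an OSC-only TSS beside a TSS open in ovaries, the OSC-only TSS lay upstream in 40.3% (28.1 to 53.6). The distance between the 2 start sites ranged from 1001 to 92341 bp with a median of 3885 bp, and the longest was that of Dys, the dystrophin gene.

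In 73 genes (55.3%) the transcripts from the 2 start sites had different annotated start codons, so that the proteins would begin differently, in 51 they had the same, and in 8 they shared some. Over the 1183 alternative TSSs 53.6% had different start codons. Among the genes above, btsz, fwd, DAAM, Kank, lute, cher, pnt and Moe had different start codons, and SP1173, dsx, smg and Tsp5D the same. Only start codons were compared, and not the later exons of the transcripts. In 11 genes the TSS of another gene lay within 250 bp of the ovary-only TSS, and in 10 of them that of a protein-coding gene, so that the peak cannot be assigned to 1 gene. The X chromosome held 31 of the 132 members and 345 of the 1752 genes with TSSs at least 1000 bp apart, and chromosome 4 held 1 of the members and 23 of those genes.

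Motifs were counted from 250 bp before to 50 bp after each TSS on both strands. CCGTTA was found at 13 of the 132 ovary-only TSSs (9.85%, exact 95% interval 5.35 to 16.3), at 4.55% of the members' OSC TSSs and at 8.76% of all 19607 annotated TSSs. The broader form CNGTTA, which includes CCGTTA, was found at 34.1%, 37.9% and 37.8%. The ovary-only TSSs were therefore close to the share over all TSSs for both forms. Of the 34 genes with a wild-type peak in the window 8 had CCGTTA, and of the 98 without 5 had it. The 8 with the highest ovary medians were CG17600, fwd, CG9815, pyd, tws, CG34310, CG1275 and tyf.

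The sites of 7 of these genes are shown because CCGTTA is the motif that the study tied to germline promoters. Each stretch is given on the strand of the gene, and capitals mark CCGTTA or, where it lies on the other strand, TAACGG.
CG17600, ovary-only TSS (chrX:22540253-22540282, plus strand): gatggtttatgtTAACGGcgacgtgcggtc
fwd, ovary-only TSS (chr3L:320016-320045, minus strand): ttacgctacgagTAACGGgaataccgattc
pyd, ovary-only TSS (chr3R:8857612-8857637, minus strand): agtggacgcgatTAACGGacgaattt
tws, ovary-only TSS (chr3R:10134364-10134393, minus strand): atttatcgcaatCCGTTAgtcactaaccaa
CG34310, ovary-only TSS (chr2L:6663675-6663704, plus strand): tttgtaacagaaTAACGGcttttatgtaat
CG1275, ovary-only TSS (chr3L:2255961-2255982, minus strand): gttcggttgtatTAACGGggtg
tyf, ovary-only TSS (chrX:4119736-4119763, plus strand): ttcgaaatagtgCCGTTAcatttggtcc
pyd (polychaetoid) codes for the fly ZO-1 protein of cell junctions, tws (twins) for a regulatory subunit of protein phosphatase 2A, and tyf for a translation factor of the circadian clock. pyd had 10.4 and 11.9 in w1118 and 13.2, 10.6 and 9.17 in vas-GFP ovaries, no summit in any OSC library, and the nearest wild-type summit 2638 bp away. Its site lay 37 bases into the transcript. tws had 12.4 and 9.55 in w1118 and 9.78, 10.7 and 8.06 in vas-GFP ovaries, and 5.70 in l(3)mbt-KO replicate 2, with a wild-type peak over the TSS.

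The 2 motifs of broadly used fly promoters were found at few of the ovary-only TSSs, and likewise at few of the OSC-only TSSs of the opposite pattern. The DRE was found at 3 of them (2.27%, 0.471 to 6.50), which were those of for, CG31743 and magu, against 9.85% (5.35 to 16.3) of the members' OSC TSSs, 7.98% of all TSSs and 13.7% of the 6063 TSSs with a summit in all 5 ovary and both wild-type libraries. The core of Ohler motif 1 was found at 1, that of fwd (0.758%, 0.0192 to 4.15), against 4.55%, 5.23% and 12.3% of the same sets. Over all 569 TSSs with the ovary-only pattern the shares were 4.04% and 0.703%, and at the 62 OSC-only TSSs they were 0% (0 to 5.78) and 1.61% (0.0408 to 8.66), so low shares were not particular to ovary-only promoters. GAGAG was found at 50.8% of the ovary-only TSSs, 51.5% of the OSC TSSs and 33.1% of all TSSs. TATAAA was found at 33.3%, 28.0% and 42.2%, TCAGT at 56.8%, 62.9% and 52.1%, and CAGCTG at 17.4%, 22.0% and 17.9% of these 3 sets. GAGAG was also found at 51.3% of the 569 TSSs with the ovary-only pattern and at 59.7% of the 62 OSC-only TSSs. Its high share was thus not particular to the members. These matches are letters in a window and were not tested for binding. The place of TCAGT relative to the TSS was not used, so its share is not a share of initiators. In a window of 100 bp either side of the TSS, CCGTTA was left at 7 genes (5.30%).

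**Figure D5:**
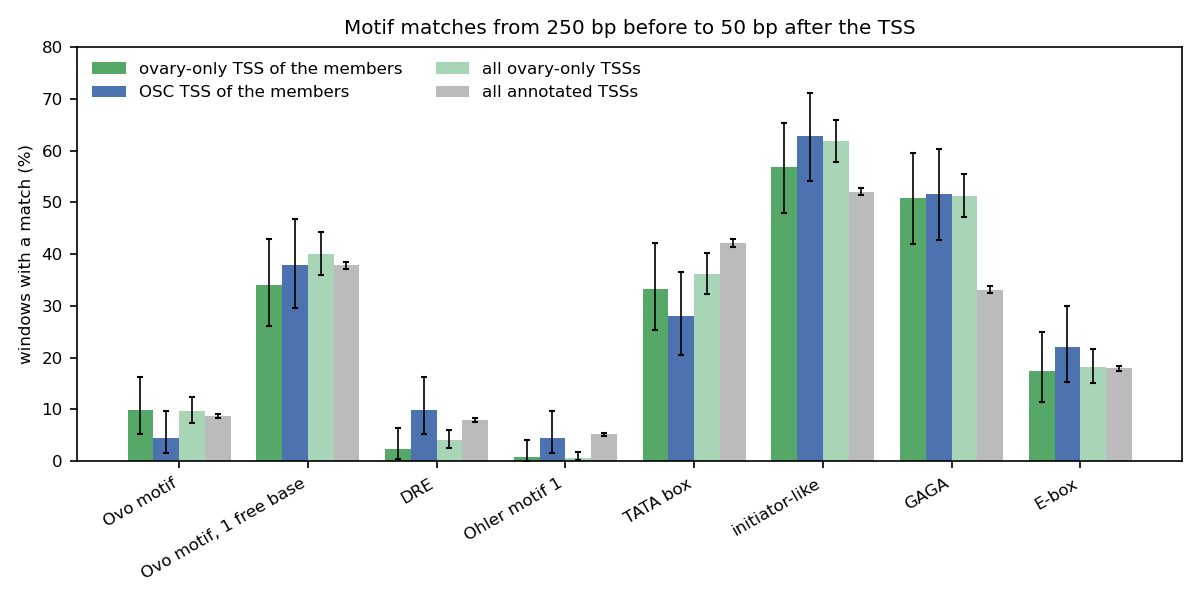
Share of windows from 250 bp before to 50 bp after the TSS with at least 1 match to each of 8 motifs, in percent with exact 95% intervals, for the ovary-only and OSC TSSs of the 132 members, all 569 ovary-only TSSs and all 19607 annotated TSSs. The DRE and Ohler motif 1 stand at 2.27% and 0.758% of the members' ovary-only TSSs. GAGAG stands near 51% at both promoters of the members and at all 569 ovary-only TSSs, beside 33.1% of all TSSs.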

How the data were processed

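ATAC-seq peak lists of 9 libraries on the dm6 assembly were used. Per the study's methods and the submitters' processing notes, the authors trimmed reads with cutadapt 1.18, aligned them with BWA, marked duplicates with Picard 2.9.0, filtered with SAMtools 1.9 and called peaks in each library, and again on merged replicates of a group, with MACS2 2.1.1.20160309 (q-value up to 0.05), each cut shifted by -37 bp and extended to 73 bp around the transposase insertion. The deposited lists give, for each peak, fold enrichment at the summit (a ratio to the local background of the same library, with no scaling between libraries by the authors) and the -log10 p-value and q-value as the authors' caller wrote them. The merged lists entered no test. The deposited table of differential regions from DiffBind holds the authors' own log2 fold changes and false discovery rates of l(3)mbt-KO against wild-type regions and was not used.

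TSSs were the distinct 5′ ends of annotated transcripts of protein-coding genes in Ensembl release 115, with ovo and the Y chromosome left out. A summit counted at a TSS within 250 bp. Where a gene had several ovary-only TSSs (15 genes), the one with the most ovary libraries and then the highest median was described, with the OSC TSS of the highest wild-type mean. The members, gene lists and tests were chosen with earlier results of these data known. Named genes were the 12 with the highest ovary medians, those with both l(3)mbt-KO summits, those in the gene lists, those without an ovary summit at the OSC TSS, 8 with CCGTTA and those nearest a threshold; CG12991, Ptpmeg2, CG1943, tamo, MFS10, Dys, the genes with 1 to 3 ovary summits at the OSC TSS and those with the DRE or Ohler motif 1 were named after their values were seen. limma 3.58.1 in R 4.3.3 gave adjusted p-values over all TSSs tested at a threshold of 0.05. It was also run on simulated data with independent errors, which these libraries need not have, so that run is no support for the calls made here. The p-values cover the spread between these libraries, which may be technical. The labels give the libraries as separate samples without naming separate cultures or animals. Exact binomial 95% intervals came from SciPy 1.17.1. Sequences and motif counts came from the RefSeq genome of the same assembly.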

Additional observations from a re-analysis of the deposited data

How the results depend on the processing

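The counts depend most on the wild-type lists. With 1 library left out in turn, the number of genes ranged from 132 to 228, the share with a summit in both l(3)mbt-KO libraries (or in the remaining one) from 8.51% to 21.6%, the share with the OSC TSS open in ovaries from 80.8% to 95.3%, the share upstream from 32.2% to 38.9%, the members called between l(3)mbt-KO and wild-type OSCs from 0 to 12 and between the strains from 0 to 0; over all TSSs these comparisons called 1 to 329 and 0 to 1. With no wild-type summit within 1 kb, 39 genes were left, 97.4% of them with the OSC TSS open in ovaries. That share was 85.4% where all 5 ovary libraries were required, by construction stricter at both sites, and 87.2% with 16579 peaks per library. CCGTTA fell to 5.30% in the shorter window of 100 bp either side of the TSS. The other distances, separations, q-value limits and numbers of libraries gave 89 to 168 genes, and with these and the 1 kb limit the l(3)mbt-KO share was 5.13% to 12.8%, but not the same genes: of the 132, 77 were found with summits within 150 bp, 89 within 500 bp and 90 with equal numbers of peaks.

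With the replicate number as a block, the fit called 0 members and 48 TSSs, against 0 and 1 without it; deviations of same-numbered OSC libraries had a correlation of 0.513, but with 2 pairs and no shared origin in the labels the numbers name samples only. Peak names inside the deposited lists moreover give wild-type replicate 2 as number 3 and l(3)mbt-KO replicate 2 as number 4, so that the block joined libraries that were numbered differently there. Without centring, with quantile normalization, within 500 bp and at a mean fold enrichment of at least 4, 0 members were called in either comparison. Peak lists without read counts limit precision, and a summit missed for depth cannot be told from a closed promoter.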
